A study of Rattus norvegicus with 9 samples.

Results

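Neonatal rat cardiomyocyte cultures carrying a hairpin against TCF7L2 were compared with cultures carrying a control lentivirus. The comparison covers 6 of the 9 polyA RNA-seq libraries of the series: the 3 lenti-shTCF7L2 and the 3 lenti-NC libraries, chosen by their labels. The cells came from hearts of SD rats 1 to 2 days old and are labelled WT in the lenti-NC group and TCF7L2 knock down in the lenti-shTCF7L2 group. In both groups, virus was applied for 16 h and the cells were then kept for 48 h in medium with 10% serum. The 3 remaining libraries, lenti-TCF7L2, are cultures of the same kind in which the factor was overexpressed, and are used here only for values set beside the hairpin result. All 3 groups were infected with a lentivirus; the labels name no uninfected culture, no dose of virus, no hairpin sequence, and only 1 hairpin virus and 1 control virus. The deposited tables of the lenti-NC libraries are named GFP, while the labels call that virus a vector control and do not say what it carries. They also do not say that replicates came from separate cell preparations, so the p-values below measure the spread between these libraries, which may be technical.

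TCF7L2 (also called TCF4) is a high-mobility-group transcription factor of the TCF/LEF family. Without a Wnt signal it occupies its target genes together with Groucho (TLE) corepressors. When a Wnt ligand binds a Frizzled receptor and its LRP coreceptor, beta-catenin is spared from degradation, enters the nucleus and joins the factor to activate those genes. The series title places the study in diabetic cardiomyopathy and names carbonic anhydrase 2 as a gene raised through TCF7L2, so the hairpin addresses what changes when the factor is lowered.

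The 6 libraries were close to each other in depth, with totals from 15085922 to 15259536 expected counts and 13294 to 13393 genes listed in each. The biological coefficient of variation was 3.99% over the 6 libraries and 14.9% when the 3 overexpression libraries entered the fit, which is why calls are given from the 6 libraries, with the 9-library count beside them. Levels are given as CPM (each library's counts scaled to the same total) after scaling for composition. Differences are given as the log2 ratio of lenti-shTCF7L2 to lenti-NC with an approximate standard error (SE). That SE is the absolute log2 difference divided by the square root of the F statistic of the test named next. A gene is called higher or lower where its adjusted p from edgeR's quasi-likelihood test is under 0.05 over the 11553 genes tested.

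Tcf7l2 mRNA was lower in every hairpin library, but most of it remained. Its level was 39.7, 36.1 and 33.8 CPM in the lenti-NC libraries and 25.4, 30.1 and 25.7 CPM in the lenti-shTCF7L2 libraries. The groups did not overlap; the mean fell from 36.5 ± 2.97 to 27.1 ± 2.60 CPM (± SD, n = 3, as for all means below), a log2 difference of -0.43 ± 0.08 (adjusted p = 1.81e-04). The mean level fell by 25.9%. In the 9-library fit the same difference had an adjusted p of 0.511 and was not called. Protein was not measured.

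Among the partners of TCF7L2, Lef1, a second member of the family, was lower as well, from 1.53 ± 0.227 to 0.675 ± 0.0745 CPM, with -1.17 ± 0.30 on the log2 scale (adjusted p = 0.00536), and its 2 groups did not overlap. Its level is low, at 9 to 25 counts a library. Of the 12 genes tested among TCF/LEF factors, beta-catenin and its corepressors and coactivators, 4 were lower and none higher. Over all genes tested, 15.5% were called lower and 13.0% higher. Besides Tcf7l2 and Lef1, these were Ctnnb1, which encodes beta-catenin, at -0.13 ± 0.04, and Tcf7l1, usually a repressor of the family, at -0.16 ± 0.05. The calls of Ctnnb1 and Tcf7l1 were lost when single libraries were left out (lenti-NC replicate 2 or lenti-shTCF7L2 replicates 2 or 3 for Ctnnb1; lenti-NC replicates 1 or 3 or lenti-shTCF7L2 replicate 2 for Tcf7l1). Neither passed in the 9-library fit, and Lef1 did. The corepressors Tle1, Tle2, Tle3 and Tle4 lay between -0.10 and 0.23 and did not pass.

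At the cell surface, Fzd1, a Frizzled receptor, was the Wnt receptor with the lowest adjusted p. It read 799, 851 and 807 CPM in the lenti-NC libraries and 511, 493 and 522 CPM in the lenti-shTCF7L2 libraries. Every hairpin library was far below every control library, by -0.69 ± 0.04 on the log2 scale (adjusted p = 5.53e-11). Of 14 receptors tested, 4 were lower and none higher: Fzd1, the coreceptors Lrp6 (-0.26 ± 0.06) and Lrp5 (-0.23 ± 0.05), and Ror2 (-0.15 ± 0.05), whose call was lost without any 1 of 4 libraries (lenti-NC replicates 1 and 2, lenti-shTCF7L2 replicates 1 and 3). Of these, Fzd1 alone passed in the 9-library fit.

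The secreted Wnt modulators moved in different directions. Frzb (also called Sfrp3), a decoy that binds Wnt ligands, fell from 21.1 ± 1.61 to 10.9 ± 1.28 CPM, or -0.96 ± 0.10 (adjusted p = 1.10e-07), and Sfrp2, of the same family, fell by 0.46. Sfrp4, another family member, rose from 2.35 ± 0.459 to 7.22 ± 1.32 CPM, or 1.61 ± 0.18 (adjusted p = 5.80e-07). Of 18 ligands and antagonists tested, 3 (16.7%) were higher and 4 (22.2%) lower, against 13.0% and 15.5% over all genes tested. The groups of Frzb, Sfrp2 and Sfrp4 did not overlap. Rspo1, which raises receptor levels at the surface, was lower (-0.42 ± 0.11), and Wnt5a, a ligand best known for beta-catenin-independent signalling, was higher (0.25 ± 0.05); neither passed in the 9-library fit.

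The genes commonly used as readouts of the pathway did not fall as a group. Of 19 Wnt targets tested, 4 (21.1%) were higher and 4 (21.1%) lower, against 13.0% and 15.5% over all genes tested. Axin2, the feedback inhibitor most often used as a reporter, was 1.20, 2.21 and 1.66 CPM in the lenti-NC libraries and 1.64, 1.62 and 1.58 CPM in the lenti-shTCF7L2 libraries, with overlapping groups and a log2 difference of -0.07 ± 0.26 (adjusted p = 0.878). Myc, a growth transcription factor, rose by 0.47 ± 0.07, and Cd44, a hyaluronan receptor, by 0.43 ± 0.05. Twist1 (-0.43 ± 0.07) and Sox9 (-0.37 ± 0.06), which encode transcription factors of mesenchymal cells, fell; these calls were lost in the 9-library fit, and those of Myc and Cd44 were kept. Axin2 stood at 18 to 33 counts a library, so a small change would not be detectable at this depth.

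Car2, the carbonic anhydrase named in the series title, was 1.94, 1.14 and 1.66 CPM in the lenti-NC libraries and 1.31, 1.03 and 1.78 CPM in the lenti-shTCF7L2 libraries. Its groups overlapped and the difference was -0.20 ± 0.28 (adjusted p = 0.645), with 16 to 29 counts in each library. Of 12 carbonic anhydrases tested, 2 (16.7%) were lower and none higher. The lower share is near the 15.5% over all genes tested, of which 13.0% were higher. Without lenti-NC replicate 2 the counts were 1 lower and 2 higher (Car12 and Car14, at 0.24 ± 0.21 and 0.18 ± 0.07 with all 6 libraries). Car4, a membrane-anchored form, fell from 1.86 ± 0.336 to 0.545 ± 0.167 CPM, or -1.76 ± 0.32 (adjusted p = 2.11e-04), a difference not called in the 9-library fit (adjusted p = 0.132). Car5b, a mitochondrial form, was at -0.36 ± 0.11, and its call was lost without lenti-NC replicate 2 or lenti-shTCF7L2 replicate 1.

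**Figure D1:**
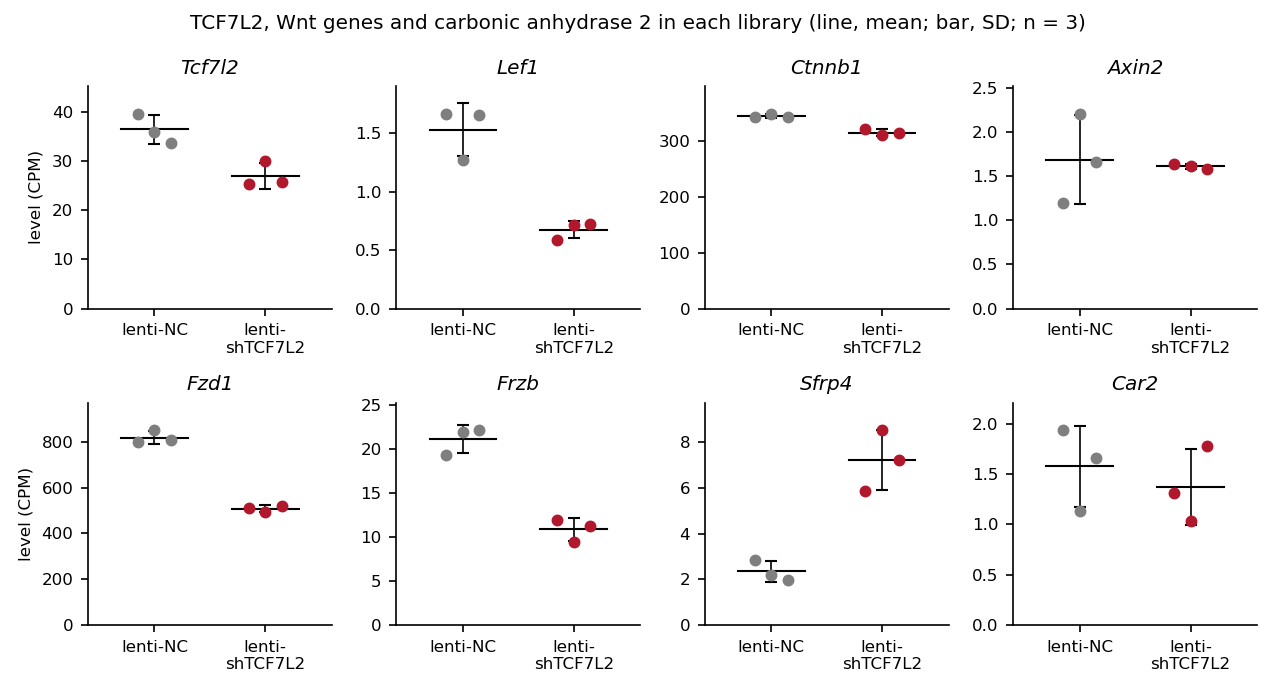
Level in CPM of 8 genes in each library, with lenti-NC in grey and lenti-shTCF7L2 in red; points are libraries, lines are means and bars are SD (n = 3). Tcf7l2, Lef1, Fzd1 and Frzb are lower in all hairpin libraries and Sfrp4 is higher, while Axin2 and Car2 overlap.

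Across the transcriptome the differences were many and mostly small. Of 11553 genes tested, 3294 (28.5%) were called, 1507 higher and 1787 lower. The median size of a called difference was 0.29 on the log2 scale, and 1901 calls (57.7%) were of less than 1.25-fold. Only 42 genes (0.364%) were at least 2-fold higher and 99 (0.857%) at least 2-fold lower. The 2 groups did not overlap in 4760 genes (41.2%). On FPKM values tested with limma, 58.5% of calls were higher against 45.7% in the main result, and with upper-quartile scaling 52.9%, so the balance of small rises and falls depends on the scaling. Leaving out each library in turn kept 1996 of the 3294 calls in every fit, 836 higher and 1160 lower. The 9-library fit called 428 genes (155 higher, 1.32% of its 11761 genes, and 273 lower, 2.32%), all among the 3294 and all in the same direction. That fit holds the libraries of the main fit, so the shared direction follows from shared data and is no separate support.

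**Figure D2:**
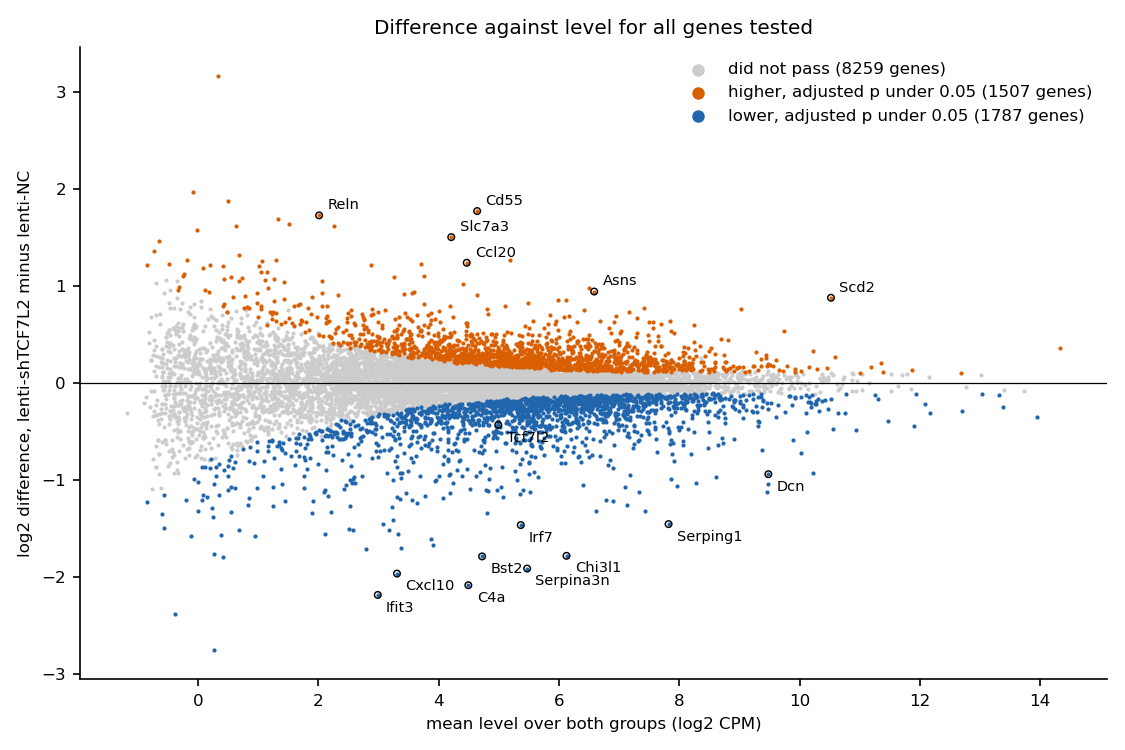
Log2 difference (lenti-shTCF7L2 minus lenti-NC) against mean level (log2 CPM) for the 11553 genes tested; each point is a gene, coloured by call. Most called genes lie near 0, and the largest falls at moderate level are interferon, complement and acute-phase genes such as Ifit3, C4a, Cxcl10 and Serpina3n.

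The largest changes were ranked over called genes with separate groups and a mean of 50 counts or more in the higher group. Cd55 headed the rises. It encodes decay-accelerating factor, a membrane inhibitor of complement, and read 13, 9.36 and 11.5 CPM in the lenti-NC libraries and 41, 38.7 and 36 CPM in the lenti-shTCF7L2 libraries, or 1.77 ± 0.09 (adjusted p = 6.49e-12). Reln, the secreted matrix glycoprotein reelin, rose from 1.86 ± 0.00813 to 6.20 ± 0.475 CPM. It had 28 counts in each lenti-NC library, so the small SD there comes from equal low counts and understates counting noise. Slc7a3, a cationic amino acid transporter, and Slc7a11, the cystine/glutamate exchanger, rose by 1.50 ± 0.09 and 1.23 ± 0.12. The 15 largest rises also held, between 1.04 and 1.70, Rasal1, a Ras GTPase-activating protein, Adm2, a peptide hormone of the adrenomedullin family, Sfrp4, the chemokines Ccl12 and Ccl20, Lyz2 (lysozyme), Trib3 and Chac1 (both stress-induced through ATF4), Mfsd2a, a lysolipid transporter, and Pnpla3, a lipid droplet protein.

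The 15 largest falls by the same rule were mostly genes of innate immunity. They ran from -2.19 for Ifit3 to -1.47 for Irf7. Of the interferon-induced genes they included Ifit3, Cxcl10, Bst2, Oas1a, Oasl, Ifi47, Rsad2, Irf7 and the class I gene RT1-T24-3. C4a, C6 and Cfb encode complement proteins, Serpina3n and Chi3l1 encode secreted proteins of the acute-phase type, and MGC108823 has only a placeholder name. In the 9-library fit all of these 30 genes were called except Oas1a and Ifi47. They were picked for large differences in libraries that this fit also holds, so passing there is no separate support. For several genes only the higher group met the count rule. Among the rises, Reln, Rasal1, Adm2, Sfrp4, Ccl12, Mfsd2a and Pnpla3 had 16 to 49 counts in each lenti-NC library.

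**Figure D3:**
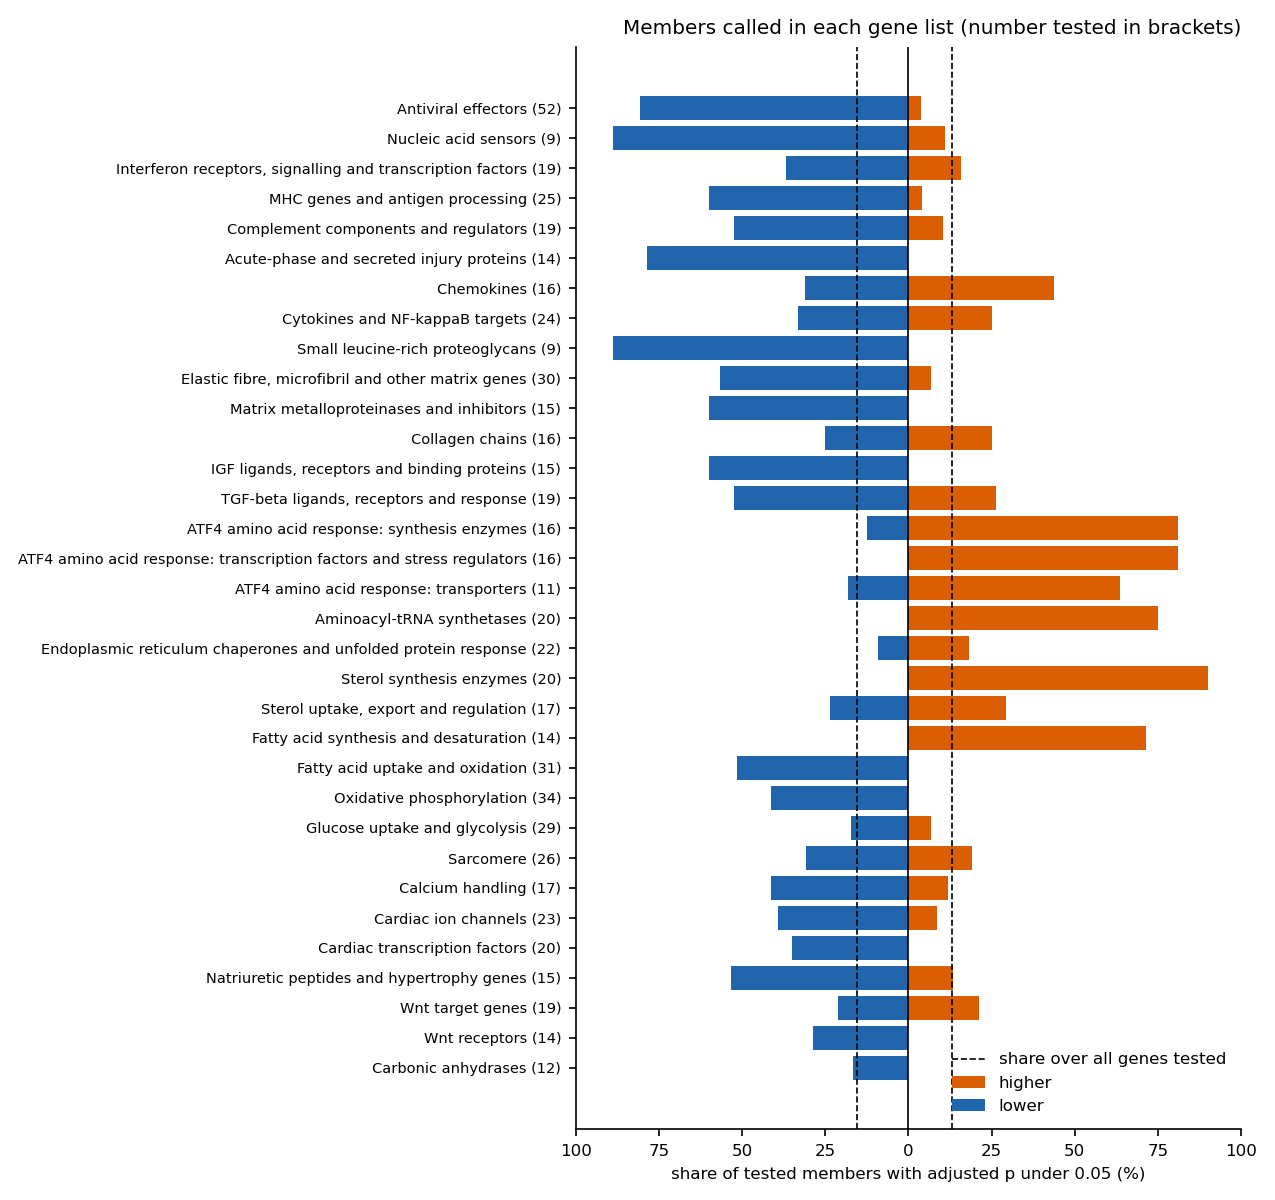
Share in percent of the tested members of each gene list that were called higher (orange, right) or lower (blue, left), with the number tested in brackets; dashed lines mark the shares over all genes tested, 13.0% higher and 15.5% lower. Antiviral, sensor, acute-phase and proteoglycan genes extend farthest to the left, and sterol synthesis enzymes, the regulators and synthesis enzymes of the amino acid response, and aminoacyl-tRNA synthetases farthest to the right.

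Interferons are cytokines that cells release after sensing foreign nucleic acid. They act through receptor-bound JAK kinases and transcription factors of the STAT and IRF families, which bind an interferon-stimulated response element and switch on antiviral effector genes. To show that element in the genes that fell, 5 antiviral effectors are printed below: the ones with the lowest adjusted p among those whose upstream sequence holds the core letters of the element on either strand (GAAA, any 2 bases, GAAA). Each sequence lies upstream of the gene start in the GRCr8 assembly, from RefSeq's promoter table, read in the direction of the gene, and capitals mark the match. The deposited counts were made on another assembly.
Bst2 (chr16:18255058-18255123, minus strand): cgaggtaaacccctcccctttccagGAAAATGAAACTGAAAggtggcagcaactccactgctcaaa
Ifi27 (chr6:128355203-128355262, plus strand): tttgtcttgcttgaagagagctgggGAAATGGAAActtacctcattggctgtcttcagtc
Lgals9 (chr10:64428071-64428111, minus strand): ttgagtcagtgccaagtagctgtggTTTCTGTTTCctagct
Lgals3bp (chr10:104127864-104127923, minus strand): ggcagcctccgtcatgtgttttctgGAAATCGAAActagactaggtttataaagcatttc
Ifit3 (chr1:241527257-241527316, plus strand): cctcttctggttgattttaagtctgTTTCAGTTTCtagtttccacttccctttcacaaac
In Bst2 the run in capitals holds 2 overlapping matches. Of the 42 antiviral effectors called lower, 33 matched an entry of the promoter table, and 20 of those (60.6%) held the core letters in the 250 bases before the start, against 238 of 9412 promoters of all genes tested (2.53%). The TCF/LEF core letters CTTTGAT were in 0 of the same 33 and in 187 of the 9412 (1.99%). At that share few or no matches would be present in 33 promoters, so the 0 does not set these genes apart from all genes. These are letter matches in a fixed window, and binding was not measured. The list is of genes that interferon is known to switch on, and matches were not counted in members that did not fall. The share with the interferon element describes the list rather than the difference between the groups.

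The antiviral effectors fell as a group. Of 52 tested members, 42 were lower, 2 were higher and 8 did not pass; the median log2 difference was -0.68, against 0.01 over all genes tested. Bst2, the membrane tether that holds budding enveloped virus, read 41.8, 40.6 and 40.4 CPM in the lenti-NC libraries and 13.6, 11 and 11 CPM in the lenti-shTCF7L2 libraries, or -1.79 ± 0.08 (adjusted p = 7.36e-13). Ifit3, which binds foreign RNA with its partner Ifit1, read 17.4, 9.96 and 11.7 CPM in the lenti-NC libraries and 3.93, 2.26 and 2.37 CPM in the lenti-shTCF7L2 libraries, or -2.19 ± 0.21 (adjusted p = 4.43e-08). For both genes the highest hairpin library was below the lowest control library by more than a factor of 2. In bulk cultures, fewer cells of a type and less RNA per cell cannot be told apart.

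In the oligoadenylate synthetase family, some members activate RNase L on double-stranded RNA. Of this family Oas1a was at -1.71 ± 0.20 and Oas2 at -2.76 ± 0.36, the latter from only 2.11 ± 0.366 to 0.304 ± 0.164 CPM. The synthetase-like Oasl was at -1.70 ± 0.12. The ubiquitin-like modifier Isg15 fell by 1.28, the GTPases Mx1 and Mx2 by 1.23 and 1.10, and Rsad2 (viperin) by 1.50. More abundant members fell by smaller factors: Ifi27 went from 191 ± 14.8 to 99.1 ± 6.43 CPM, Ifitm1, a membrane restriction factor, from 145 ± 2.15 to 80.8 ± 4.83 CPM, and Lgals3bp, a secreted glycoprotein, from 577 ± 17 to 387 ± 28 CPM. The 2 members that rose were Isg20, an exonuclease (0.54 ± 0.11), and Lap3, an aminopeptidase (0.26 ± 0.05). Oas1, Ifitm, Mx and Gbp genes have close copies in the rat genome, so the split of reads between copies is uncertain. In the 9-library fit 16 of the 52 were lower and none higher, with Bst2, Ifit3, Oasl, Oas2, Rsad2, Ifi27, Ifitm1, Lgals9 and Lgals3bp among them.

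Within each group the libraries also kept an order in these genes. Lenti-NC replicate 2 was the lowest control library in 38 of the 52 antiviral effectors and replicate 1 the highest in 33, while lenti-shTCF7L2 replicate 1 was the highest hairpin library in 40. Such counts were not made over all genes tested, and the order is not particular to this list. Lenti-NC replicate 2 was also the lowest in 18 of 20 sterol synthesis enzymes, while replicate 1 was the lowest in 32 of 34 oxidative phosphorylation genes. The count of members called lower was 41 to 43 when each of the 6 libraries was left out in turn.

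Upstream of these effectors, the receptors, kinases and transcription factors were mixed. Of 19 tested, 7 were lower, 3 higher and 9 did not pass, with a median of -0.10, and Irf7 alone passed in the 9-library fit. Irf7, the regulator that amplifies interferon production, fell from 60.5 ± 8.98 to 21.9 ± 5.33 CPM, or -1.47 ± 0.11 (adjusted p = 2.63e-09). Stat2 and Irf9, of the complex that binds the response element, were at -0.76 ± 0.06 and -0.48 ± 0.08. Usp18, a feedback inhibitor of the receptor that is itself induced by interferon, was at -1.20 ± 0.14. The receptor subunit Ifnar1 was at -0.10 ± 0.05 and did not pass, Ifngr1 was lower at -0.21 ± 0.04, and Ifngr2 higher at 0.24 ± 0.05. Among the factors, Irf1 was at 0.08 ± 0.07 and did not pass, and Irf3 and Stat3 were higher at 0.19 ± 0.05 and 0.17 ± 0.04.

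Nucleic acid sensors were lower in 8 of 9 tested members and higher in 1, with a median of -0.61. Dhx58 (LGP2) was at -1.19 ± 0.12, Ddx58 (RIG-I) at -0.94 ± 0.08 and Ifih1 (MDA5) at -0.61 ± 0.10; all 3 are RIG-I-like receptors that detect RNA in the cytosol. Trim25, a ubiquitin ligase that activates RIG-I, fell by 0.83. The member that rose was Tmem173 (STING, the adaptor for cytosolic DNA) at 0.50 ± 0.16, with overlapping groups and a call lost without lenti-NC replicate 2 or lenti-shTCF7L2 replicate 1. Dhx58 and Mnda were the sensors called in the 9-library fit.

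Antigen presentation genes were lower in 15 of 25 tested members and higher in 1. B2m, the light chain shared by class I molecules, read 598, 591 and 626 CPM in the lenti-NC libraries and 524, 506 and 464 CPM in the lenti-shTCF7L2 libraries, or -0.28 ± 0.05. The immunoproteasome subunits Psmb9 and Psmb8 were at -0.99 ± 0.15 and -0.50 ± 0.11, and the peptide transporter Tap1 at -0.11 ± 0.07, which did not pass. The class I heavy chain RT1-S3 was at -1.10 ± 0.09 and RT1-A2 at -0.67 ± 0.05. In the 9-library fit 5 members were lower, and B2m and Psmb8 were not among them. RT1 genes are near-identical copies, and reads may be shared among them.

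**Figure D4:**
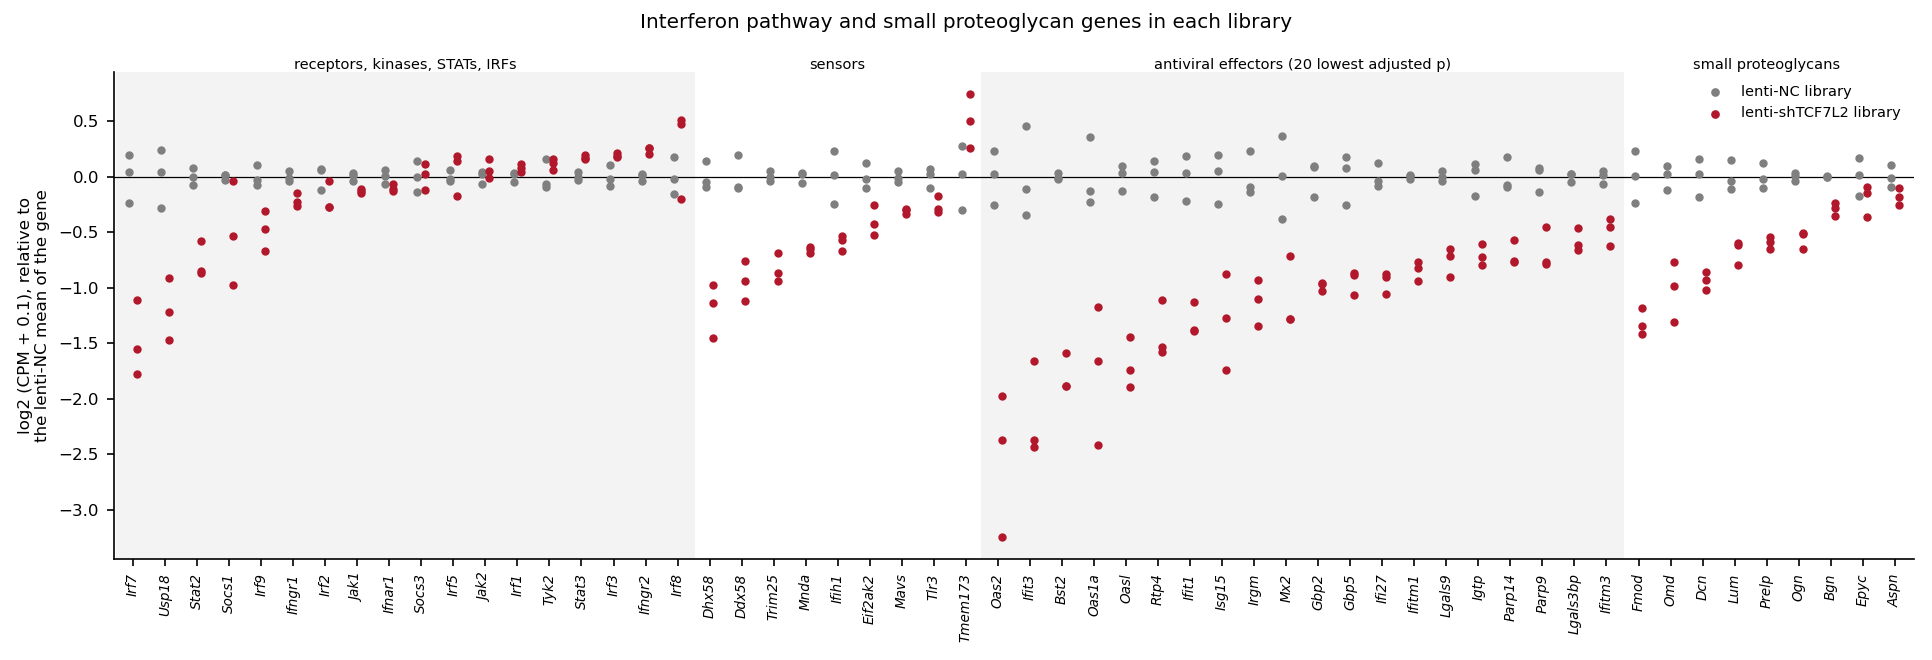
Level of each gene in each library as log2 (CPM + 0.1), relative to the lenti-NC mean of the same gene; grey points are lenti-NC and red points lenti-shTCF7L2 libraries, with genes ordered within each block by their difference and some list members not drawn. The red points of most sensors, effectors and small proteoglycans lie below all grey points, whereas the receptors and kinases lie near 0.

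Complement is a cascade of plasma proteins that marks and lyses targets, started by C1 through C4 and C2 and amplified by factor B at C3. Of 19 tested members, 10 were lower and 2 higher, with a median of -0.48. Serping1, the inhibitor of the C1 proteases, read 297, 356 and 343 CPM in the lenti-NC libraries and 136, 106 and 121 CPM in the lenti-shTCF7L2 libraries, or -1.46 ± 0.07 (adjusted p = 1.66e-12). C1s and C1r, those proteases, were at -1.04 ± 0.06 and -0.58 ± 0.04, C4a at -2.09 ± 0.16 and C2 at -0.69 ± 0.09. C3, the central component, fell from 519 ± 61 to 264 ± 42 CPM; Cfb, factor B, fell from 22.1 ± 3.57 to 7.23 ± 1.10 CPM, and C6, of the lytic pore, from 22.7 ± 2.94 to 7.12 ± 0.631 CPM. Cd55, described above, was among those that rose. C4a and its close copy C4b cannot be separated with certainty. In the 9-library fit 9 members were lower and Cd55 was higher; Clu did not pass there.

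Acute-phase and secreted injury proteins were lower in 11 of 14 tested members and higher in none, with a median of -0.56. Serpina3n, a protease inhibitor, read 72.7, 74.3 and 63.4 CPM in the lenti-NC libraries and 17.7, 17.1 and 20.9 CPM in the lenti-shTCF7L2 libraries. Its groups were separated by more than a factor of 3, with a log2 difference of -1.91 ± 0.08 (adjusted p = 1.32e-13), the lowest adjusted p of the list. Chi3l1, a chitinase-like glycoprotein, fell from 108 ± 21.8 to 31.4 ± 5.26 CPM, Lbp, which presents lipopolysaccharide, from 167 ± 14.6 to 72.2 ± 3.80 CPM, and Cp (ceruloplasmin) from 101 ± 5.18 to 66.1 ± 3.11 CPM. Lcn2, an iron-siderophore binder, was at -0.57 ± 0.08 and was not among the 6 members called in the 9-library fit.

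Chemokines split: of 16 tested, 7 were higher and 5 lower. Cxcl10, the interferon-induced T cell attractant, fell from 15.8 ± 3.66 to 4.03 ± 1.52 CPM and Cxcl12, a constitutive stromal chemokine, from 512 ± 35 to 333 ± 8.31 CPM. Ccl20 rose by 1.24 ± 0.08, and the neutrophil attractant Cxcl1 rose from 126 ± 5.59 to 215 ± 13.9 CPM, or 0.77 ± 0.05 (adjusted p = 1.60e-10). Cx3cl1, fractalkine, rose by 0.67 ± 0.05. Among 24 cytokines and NF-kappaB targets, 6 were higher and 8 lower. Il1rl1, which encodes the IL-33 receptor, fell from 416 ± 39 to 203 ± 14.2 CPM, and its ligand Il33 from 36.3 ± 2.46 to 25.3 ± 1.75 CPM. Nos2, inducible nitric oxide synthase, fell by 1.17, while Lif and Ptgs2 (cyclooxygenase 2) rose by 0.68 ± 0.11 and 0.65 ± 0.10. Il33, Lif and Ptgs2 were not called in the 9-library fit.

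The small leucine-rich proteoglycans coat collagen fibrils and bind growth factors, and are made in the heart mainly by fibroblasts. Of 9 tested, 8 were lower, with a median of -0.60. Dcn (decorin) read 822, 1047 and 951 CPM in the lenti-NC libraries and 516, 461 and 492 CPM in the lenti-shTCF7L2 libraries. The highest hairpin library was well under the lowest control library, and the difference was -0.94 ± 0.06 (adjusted p = 1.85e-10). Fmod (fibromodulin) fell from 246 ± 40.1 to 98.5 ± 8.25 CPM, or -1.32 ± 0.08; Lum (lumican) was at -0.67 ± 0.06, Prelp at -0.60 ± 0.05, Ogn (osteoglycin) at -0.56 ± 0.05 and Omd (osteomodulin) at -1.04 ± 0.21. Bgn (biglycan), the most abundant, was at -0.29 ± 0.04. Aspn (asporin) was at -0.18 ± 0.07, and its call was lost without any 1 of 4 libraries (replicates 1 and 2 of each group). Fmod, Dcn, Lum and Omd were called in the 9-library fit.

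Other matrix genes were lower more often than higher, 17 against 2 of 30 tested, with a median of -0.24. Fbln1 (fibulin 1) fell from 140.4 ± 15.6 to 56.1 ± 11.2 CPM, Thbs2 (thrombospondin 2) from 959 ± 116 to 441 ± 65.1 CPM, and Mfap4, a microfibril protein, from 486 ± 31.3 to 313 ± 30.2 CPM. Fn1 (fibronectin) was at -0.35 ± 0.04. Loxl2, a collagen cross-linking oxidase, and Tnc (tenascin C) were the 2 that rose, by 0.37 ± 0.04 and 0.32 ± 0.04. The fibrillar collagens did not follow: Col1a1 rose from 18120 ± 618 to 23230 ± 588 CPM, or 0.36 ± 0.04, Col3a1 was at 0.07 ± 0.04 and did not pass, and Col1a2 was at -0.12 ± 0.04, a call lost without lenti-NC replicate 3 or lenti-shTCF7L2 replicate 2. Of 16 collagen chains 4 were higher and 4 lower. Of 15 metalloproteinases and inhibitors 9 were lower and none higher, among them Mmp2 (gelatinase A) at -0.31 ± 0.04 and Timp3 at -0.20 ± 0.04. Fn1, Loxl2, Tnc, Col1a1, Mmp2 and Timp3 were not called in the 9-library fit.

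Insulin-like growth factor genes were lower in 9 of 15 tested members and higher in none. Igf1 read 45.4, 46.9 and 41.4 CPM in the lenti-NC libraries and 20.6, 22.1 and 20.8 CPM in the lenti-shTCF7L2 libraries, without overlap, or -1.07 ± 0.07 (adjusted p = 1.44e-10). Igf2 was at -0.82 ± 0.11, the binding protein Igfbp3 fell from 1577 ± 251 to 827 ± 109 CPM, and Irs1, the adaptor of the insulin and IGF receptors, was at -0.69 ± 0.07. The receptor Igf1r was at 0.01 ± 0.06 and did not pass. In the TGF-beta list 5 of 19 were higher and 10 lower: Id3, an inhibitor of basic helix-loop-helix factors induced by BMPs, fell by 0.76, and Cnn1, smooth muscle calponin, rose by 0.59 ± 0.04. Irs1 was not called in the 9-library fit.

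Genes of the amino acid response rose. When amino acids are scarce or the endoplasmic reticulum is stressed, phosphorylation of eIF2-alpha favours translation of ATF4, which binds an amino acid response element in genes for amino acid synthesis, import and tRNA charging. That element's core letters TGATGNAA are shown in 5 genes that rose, chosen as the lowest adjusted p among those that hold a match within 250 bases before the start; sequences are again from RefSeq on GRCr8, in the direction of the gene, with the match on either strand in capitals.
Trib3 (chr3:161275534-161275579, minus strand): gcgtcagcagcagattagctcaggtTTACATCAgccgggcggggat
Aars (chr19:55908345-55908402, plus strand): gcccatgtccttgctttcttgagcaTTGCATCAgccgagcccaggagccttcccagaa
Chac1 (chr3:126795939-126795996, plus strand): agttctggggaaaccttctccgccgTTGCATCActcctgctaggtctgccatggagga
Nupr1 (chr1:190645924-190645981, minus strand): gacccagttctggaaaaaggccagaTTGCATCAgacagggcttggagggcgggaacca
Mars (chr7:65023754-65023795, minus strand): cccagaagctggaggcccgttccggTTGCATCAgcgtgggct
In these 5 genes the match is on the strand opposite to the gene, and Trib3 differs from the other 4 in its letters. Of 28 amino acid response genes that rose and matched the promoter table, 6 (21.4%) held the letters, as did 5 of 14 aminoacyl-tRNA synthetases (35.7%), against 167 of 9412 promoters of all genes tested (1.77%). Both lists were chosen by function, and matches were not counted in members that did not rise. The shares describe the lists rather than the difference between the groups.

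Among the enzymes of amino acid synthesis and one-carbon metabolism, 13 of 16 tested were higher and 2 lower, with a median of 0.54. Asns, asparagine synthetase, read 71.2, 54.9 and 71.1 CPM in the lenti-NC libraries and 126, 134 and 119 CPM in the lenti-shTCF7L2 libraries; all hairpin libraries were above all control libraries, by 0.94 ± 0.07 (adjusted p = 1.43e-09). The serine pathway enzymes Phgdh and Psat1 rose by 0.86 ± 0.06 and 0.76 ± 0.08, and the mitochondrial folate enzymes Mthfd2 and Shmt2 by 0.82 ± 0.08 and 0.54 ± 0.05. Bcat1, which transaminates branched-chain amino acids, rose by 0.63 ± 0.05. The 2 that fell are transaminases, Gpt2 (-0.72 ± 0.07) and Got1 (-0.41 ± 0.04). In the 9-library fit 9 of the 16 were higher and the same 2 lower.

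Of 16 transcription factors and stress regulators of this response, 13 were higher and none lower. Atf4 itself rose from 238 ± 14 to 296 ± 1.91 CPM, or 0.32 ± 0.04, Atf5 by 0.63 ± 0.07, and Ddit3 (CHOP) by 0.40 ± 0.10. The targets Trib3, a pseudokinase, and Chac1, which degrades glutathione, rose by 1.10 ± 0.09 and 1.09 ± 0.13, and Gdf15, a secreted stress cytokine, by 0.72 ± 0.08. Of 11 transporters 7 were higher and 2 lower. Slc7a3 read 10.1, 8.29 and 10.5 CPM in the lenti-NC libraries and 26.6, 28.6 and 26.8 CPM in the lenti-shTCF7L2 libraries, with no overlap, and Slc7a11 read 8.88, 5.82 and 8.68 CPM in the lenti-NC libraries and 17.5, 18.7 and 18.7 CPM in the lenti-shTCF7L2 libraries. Slc7a5, the large neutral amino acid carrier, rose by 0.49 ± 0.07 and Slc6a9, a glycine transporter, by 0.56 ± 0.06; Slc38a1, a glutamine carrier, fell by 0.37. Atf4, Ddit3, Slc7a5 and Slc38a1 were not called in the 9-library fit.

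Aminoacyl-tRNA synthetases, which charge tRNAs with their amino acids, were higher in 15 of 20 tested members and lower in none, with a median of 0.33. Yars, for tyrosine, read 55.7, 48.7 and 59.6 CPM in the lenti-NC libraries and 88.8, 92.5 and 83.4 CPM in the lenti-shTCF7L2 libraries, or 0.69 ± 0.06. Cars (cysteine) rose by 0.64 ± 0.08, Aars (alanine) by 0.54 ± 0.05 and Eprs (glutamate and proline) by 0.42 ± 0.05. The 9-library fit called 6 of the 20, all higher. Chaperones of the endoplasmic reticulum moved less: of 22 tested, 4 were higher and 2 lower, and Hspa5 (BiP) was at 0.12 ± 0.04, a call lost without lenti-NC replicate 2 or lenti-shTCF7L2 replicate 2. Lenti-NC replicate 2 was the lowest control library for 11 of the 16 synthesis enzymes and 15 of the 20 synthetases. The counts of members called higher were 13 and 14 to 16 when each library was left out in turn.

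Sterol synthesis, which runs from acetyl-CoA through the mevalonate route to cholesterol, is raised by the transcription factor SREBP2 when cells sense little sterol. Of 20 enzymes tested, 18 were higher and none lower, with a median of 0.36. Acat2, the first enzyme of the route, read 45, 42.4 and 46.7 CPM in the lenti-NC libraries and 64.7, 72 and 68.2 CPM in the lenti-shTCF7L2 libraries, or 0.61 ± 0.06 (adjusted p = 3.99e-08), and the groups did not overlap. Fdps, which makes farnesyl diphosphate, rose by 0.49 ± 0.05, and Dhcr7, which makes cholesterol itself, by 0.52 ± 0.07. Mvd, at 0.17 ± 0.07, did not pass. The rises were small, and 13 of the 18 calls held without each of the libraries, with 14 to 19 called in those fits; lenti-NC replicate 2 was the lowest control library in 18 of the 20 enzymes. The 9-library fit called 4, among them Acat2, Dhcr7 and Idi1.

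Genes of sterol uptake, export and regulation went both ways, with 5 of 17 tested higher and 4 lower and a median of 0.11. Srebf1, which encodes SREBP1, rose from 94.7 ± 12 to 153 ± 6.61 CPM, or 0.69 ± 0.06, and Srebf2 by 0.32 ± 0.05. The export gene Abcg1 and the lipoprotein gene Apoe fell by 0.39 and 0.76, and Abca1 was at -0.05 ± 0.05, which did not pass. Of 14 genes of fatty acid synthesis and desaturation 10 were higher and none lower. Scd2, the more abundant stearoyl-CoA desaturase, read 1159, 880.1 and 1068 CPM in the lenti-NC libraries and 1872, 1984 and 1860 CPM in the lenti-shTCF7L2 libraries, or 0.88 ± 0.06 (adjusted p = 8.94e-10). Scd rose by 0.75 ± 0.09, Fads2 by 0.57 ± 0.07, and Fasn, fatty acid synthase, by 0.33 ± 0.05. The sterol regulatory core letters TCACNCCAC were in 0 of 14 upstream windows of the sterol enzymes that rose and in 100 of the 9412 (1.06%). At that share a match in 14 windows would be unlikely, so the 0 does not set these enzymes apart from all genes. Scd2 was called in the 9-library fit, and Srebf1, Srebf2, Abcg1, Apoe, Scd, Fads2 and Fasn were not.

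**Figure D5:**
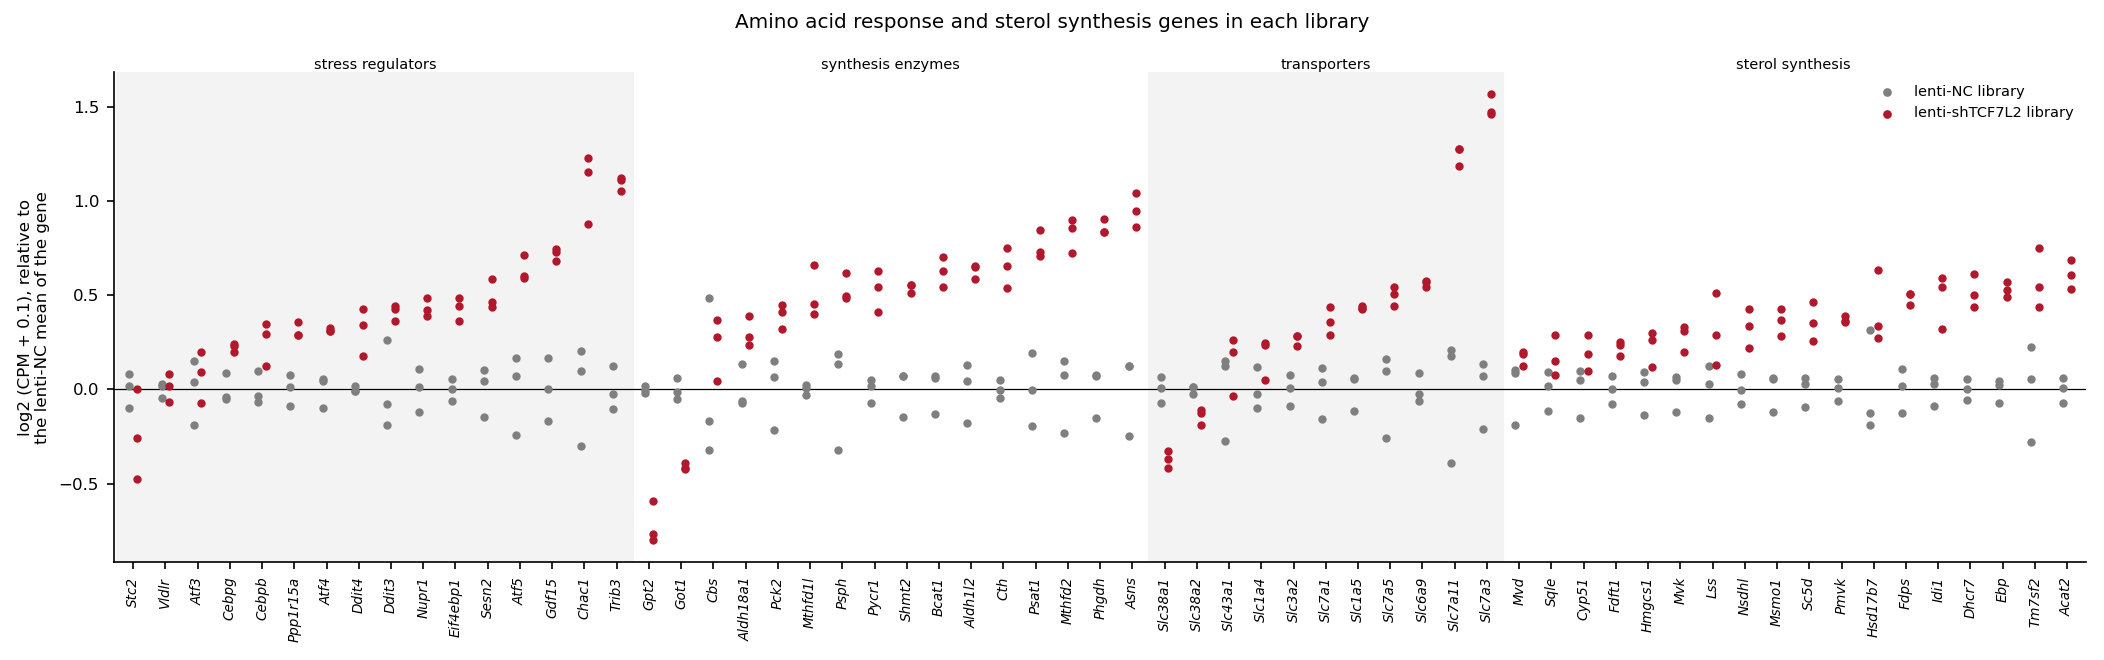
Level of each gene in each library as log2 (CPM + 0.1), relative to the lenti-NC mean of the same gene, for amino acid response and sterol synthesis genes, some of which are not drawn; grey points are lenti-NC and red points lenti-shTCF7L2 libraries. Most red points lie above all grey points of their gene, with Gpt2, Got1 and Slc38a1 below.

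The contractile genes had a median log2 difference of -0.07, with calls in both directions. Myh6 and Myh7, the cardiac myosin heavy chains, were at -0.07 ± 0.04 and -0.12 ± 0.04, and Tnnt2, cardiac troponin T, at -0.03 ± 0.04; of these Myh7 alone passed, and not without lenti-NC replicate 2 or lenti-shTCF7L2 replicates 1 or 2. Of 26 sarcomere genes 5 (19.2%) were higher and 8 (30.8%) lower, against 13.0% and 15.5% over all genes tested. The higher count was 3 when lenti-NC replicate 2 or lenti-shTCF7L2 replicates 1 or 3 were left out. Acta1, skeletal alpha-actin, which the newborn heart expresses, rose from 387 ± 31.7 to 656 ± 32.1 CPM, or 0.76 ± 0.05 (adjusted p = 2.79e-10). Myom2, an M band protein, read 269, 392 and 347 CPM in the lenti-NC libraries and 168, 147 and 168 CPM in the lenti-shTCF7L2 libraries, without overlap, or -1.06 ± 0.09 (adjusted p = 4.25e-09). Both passed in the 9-library fit.

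Genes of conduction and calcium handling were lower more often than higher. Gja5, connexin 40 of the atrium, conduction system and arterial endothelium, read 179, 190.2 and 185 CPM in the lenti-NC libraries and 88, 83.5 and 92.7 CPM in the lenti-shTCF7L2 libraries. It had a log2 difference of -1.07 ± 0.05 (adjusted p = 6.76e-13), while Gja1, connexin 43, was at 0.06 ± 0.05 and did not pass. Kcnip2, a subunit of the transient outward potassium channel, fell from 5.35 ± 1.32 to 2.11 ± 0.449 CPM, or -1.34 ± 0.21. Of 23 ion channel genes 2 were higher and 9 lower. Of those 9 calls 5 held without each library, DESeq2 and limma on log2(FPKM + 1) each called 5 lower, and the 9-library fit called 2; without lenti-shTCF7L2 replicate 3 the count was 6. Of 17 calcium genes 2 were higher and 7 lower, with none called in the 9-library fit. Pln (phospholamban) was at -0.47 ± 0.04, Atp2a2 (the SERCA2 pump) at -0.22 ± 0.05 and Ryr2 at -0.21 ± 0.04. Gja5 and Kcnip2 were called in the 9-library fit.

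Of 15 natriuretic peptide and hypertrophy genes tested, 8 were lower and 2 higher, with a median of -0.12; limma on log2(FPKM + 1) called 5 lower and the 9-library fit 1 in each direction. Nppb and Nppa, the natriuretic peptides, were at -0.51 ± 0.05 and -0.24 ± 0.05, and Ankrd1, a stretch-responsive protein, at -0.44 ± 0.04; none of the 3 was called in the 9-library fit. Fatty acid uptake and oxidation genes were lower in 16 of 31 tested and higher in none, with a median of -0.17, among them Lpl (lipoprotein lipase, -0.48 ± 0.06) and Slc25a20 (the carnitine carrier, -0.44 ± 0.07). Oxidative phosphorylation genes were lower in 14 of 34 and higher in none, with a median of -0.10 and Sdha (of complex II) at -0.30 ± 0.04. Leaving out single libraries gave 10 to 19 lower for oxidation and 9 to 18 for phosphorylation, the fewest in both without lenti-NC replicate 3, and the 9-library fit called none of the former and Sdha alone of the latter. Lenti-NC replicate 1 was the lowest control library in 32 of the 34 phosphorylation genes and replicate 3 the highest in 28, and the summed level of the list overlapped between groups, at 12190 to 13260 CPM in lenti-NC and 11390 to 12240 in lenti-shTCF7L2. The part of this library order in the result was not tested. Lenti-NC replicate 1 was also the lowest in 24 of the 31 oxidation genes. Of 29 glucose uptake and glycolysis genes 2 (6.9%) were higher, 5 (17.2%) lower and 22 did not pass. Over all genes tested, 13.0% were higher and 15.5% lower.

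Cell type markers show a mixed culture in both groups. The summed level of the 11 listed cardiomyocyte markers, of 12 looked for, was 55620 to 56670 CPM in lenti-NC and 51000 to 51900 in lenti-shTCF7L2, with 5 of the 11 lower (3 without lenti-NC replicate 2 or lenti-shTCF7L2 replicate 1) and none higher. Fibroblast markers, 16 of 16 detected, summed to 34030 to 35530 and 37960 to 40010 CPM. That sum is carried by Col1a1: without it the ranges were 16420 to 16730 and 15270 to 16250, and 8 of the 16 were lower and 1 higher. Tcf21, a transcription factor of cardiac fibroblasts, fell from 52.4 ± 1.26 to 26.1 ± 1.64 CPM. Pdgfra, the PDGF receptor of these cells, fell from 325 ± 27.7 to 208 ± 21.2 CPM, a call lost in the 9-library fit. Of the 16 markers 7 did not pass, and Col1a1 rose. The proteoglycan, complement, other matrix and IGF lists above each held more lower than higher calls, while the collagen chains were 4 higher and 4 lower. The part of cell composition in those results was not tested.

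Markers of vessels, epicardium, blood and nerve were looked for as well. Smooth muscle and pericyte markers, 4 of 13 higher and 2 lower, summed to 10140 to 10400 CPM in lenti-NC and 9923 to 10230 in lenti-shTCF7L2, and without Acta2, their most abundant member, to 6072 to 6382 and 6226 to 6459. The other sums were smaller. Endothelial markers summed to 691.5 to 720.9 and 593.7 to 605.3 CPM (1 of 18 tested higher, 4 lower), and without Eng, their most abundant member, to 242.9 to 275.6 and 229.4 to 231.8. Epicardial markers summed to 133.7 to 161.9 and 114.8 to 123.1 (1 of 10 higher, 4 lower). Macrophage and leukocyte markers summed to 48.6 to 50.2 and 51.7 to 55.1 CPM, with 2 of 10 tested higher (Lyz2 and Csf1r) and 1 lower; Ptprc (CD45) was at -0.45 ± 0.22 and did not pass, and C1qa, C1qb and C1qc were at or near 0. Schwann and neural markers (none of 7 higher, 1 lower) and erythroid markers (0 of 3 called) were at low sums in both groups.

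Proliferation genes were higher in 12 of 35 and lower in 5. The higher count dropped to 5 without lenti-shTCF7L2 replicate 2, and the lower count to 2 without lenti-shTCF7L2 replicate 1. DESeq2 called 6 higher and 4 lower, and the 9-library fit none higher and 1 lower. Cytosolic ribosomal protein genes were higher in 9 of 77, a count that ran from 1 without lenti-shTCF7L2 replicate 1 to 23 without lenti-NC replicate 3. Of 22 immediate early genes 6 were higher and 6 lower. The cardiac transcription factors were lower in 7 of 20 and higher in none, with 4 lower without lenti-NC replicate 2 or lenti-shTCF7L2 replicate 3. Heat shock genes were higher in 3 and lower in 1 of 18, metallothionein and NRF2 genes 3 and 4 of 19, p53 targets 5 and 1 of 16 (2 higher without lenti-shTCF7L2 replicate 2, 3 without lenti-NC replicate 3), and clock genes 1 and 4 of 15. Of 11 genes of the RNA interference machinery, which processes a hairpin, 1 was higher and 1 lower. Of 16 bicarbonate, proton and lactate transporters 2 were lower and none higher. Over all genes tested, 13.0% were called higher and 15.5% lower. Several of these lists lay near or under those shares, such as heat shock genes, with 16.7% higher and 5.56% lower, and ribosomal protein genes, with 11.7% higher.

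The overexpression libraries share the lenti-NC controls with the hairpin libraries, so the following values, from the fit of all 9 libraries, are set side by side without a test of their relation. Tcf7l2 stood at 1.97 ± 0.27 in lenti-TCF7L2 against lenti-NC, and at -0.43 in the hairpin comparison. Serping1 was at 1.18 ± 0.12 with overexpression and -1.46 with the hairpin, Fmod at 1.39 ± 0.15 and -1.32, Lbp at 1.10 ± 0.10 and -1.21, and Frzb at 1.06 ± 0.14 and -0.96. Scd2, at -1.26 ± 0.16 and 0.88, and Acta1, at -1.28 ± 0.11 and 0.76, have the reverse pattern of signs. Asns, at 0.60 ± 0.11 and 0.94, and Phgdh, at 0.61 ± 0.11 and 0.86, were above the controls in both. Myom2, at -2.18 ± 0.18 and -1.06, was below them in both. Bst2, at 0.15 ± 0.15, and Ifit3, at 0.75 ± 0.36, did not pass with overexpression, while Oasl, at 0.80 ± 0.17 and -1.70, and Ifi47, at 1.33 ± 0.40 and -1.56, passed above the controls with overexpression. Car2 was at 0.39 ± 0.26 with overexpression, which did not pass either.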

How the data were processed

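The deposited tables give, per library, the expected count and FPKM of each listed gene. The authors' estimated (expected) counts are not whole in every row, and their FPKM values are scaled by length and depth. HISAT2, Bowtie2, RSEM 1.3.1, DESeq2 1.4.5 and rn6 are named, without roles, per the submitters' processing notes. Expected counts were rounded and fitted by group in edgeR 4.0.16 (R 4.3.3; filterByExpr, TMM, glmQLFit, glmQLFTest, Benjamini-Hochberg adjustment over the 11553 genes tested, 2-sided); 2776 genes with low counts were set aside. Depth was 15085922 to 15259536 counts a library, so that 3 counts equal 0.197 to 0.199 CPM. Other values came from all 9 libraries, other scalings and filters, DESeq2 1.42.0, limma 3.58.1 on log2(FPKM + 1), and fits without each library. The tests were checked on simulated counts.

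Members and lists were chosen with earlier results of these data known. Named genes are Tcf7l2, Car2, the 15 largest rises and falls, and called members of each list by adjusted p, with some uncalled or further members named after their values were seen. Some genes that this rule takes in count in the totals and are not reported here. Promoters printed were chosen after their matches were seen, because they hold one; for sterol enzymes none did.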

Additional observations from a re-analysis of the deposited data

How the results depend on the processing

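With all 9 libraries in 1 fit, 428 genes were called, 155 higher and 273 lower, and the Tcf7l2 difference of -0.43 had an adjusted p of 0.511; that fit holds the wider spread of the overexpression libraries. With limma on log2(FPKM + 1) and no filter, 1141 genes were lower. DESeq2 called 2403. Leaving out each library in turn gave 2529 (without lenti-NC replicate 2) to 3106 calls, 1085 to 1409 higher and 1444 to 1697 lower; Tcf7l2 ranged from -0.52 to -0.37 and stayed called, and Car2 from -0.43 to -0.03 and was not called. Of 424 single-gene results, 368 stayed on the same side of the threshold without each library, and 171 lost the call in the 9-library fit. None reversed. Same-numbered libraries did not deviate together (correlations -0.154, -0.153 and 0.076), so the numbers are not taken as pairs. Lenti-NC replicates 1 and 2 correlated least with the hairpin library of their own number, and replicate 3 most. With the replicate block 2943 genes were called. Genes with few counts, such as Car2, Axin2 and Lef1, are limited by depth.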
